A study of Mus musculus with 8 samples.

Results

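The TNF receptor superfamily members described here were Tnfrsf1a, Tnfrsf1b, Tnfrsf4, Tnfrsf9, Tnfrsf18, Tnfrsf25, Tnfrsf26, Cd27 and Fas, 9 named genes of a family of cell surface receptors. They were found by symbol: a probe set, the group of probes that reports 1 transcript, counted only where the array annotation paired it with a member symbol alone. Of the 9 genes, 8 had such a probe set, with 11 probe sets among them, out of 18193 genes on the array, and Tnfrsf26 was not analysed here. Where a gene had several, the one highest on average was used and any other served as a check. All 8 passed the filter on low values, which 11178 genes passed.

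Helper T cells of mouse were measured in 4 groups of 2 arrays. Tfh samples were splenic CD4+ CXCR5+ T cells of C57BL/6 mice, sorted by flow cytometry 7 days after immunization with the protein KLH and then restimulated for 4 h with anti-CD3. Th1, Th2 and Th17 samples were grown from naive CD4 T cells of spleen and lymph node of OT-II mice on C57BL/6, aged 6 to 8 weeks, which carry 1 transgenic T cell receptor. These cells were activated for 5 days with OT-II peptide and antigen-presenting cells. Th1 cultures received IL-12 at 10 ng/ml and anti-IL-4, Th2 cultures IL-4 at 10 ng/ml and anti-IFNg, and Th17 cultures IL-6 at 20 ng/ml, TGFb, anti-IL-4 and anti-IFNg. Cell type, source and handling cannot be told apart between Tfh and the cultured groups. The age of the Tfh donors is not in the labels, which leave it unsaid whether the 2 replicates of a group are separate animals or cultures. A p therefore covers only the spread between these samples, which may be technical.

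Receptors of this family bind trimeric ligands of the TNF superfamily, carried on the membrane or shed, and signal through their cytoplasmic tails. Tails that bind TRAF adaptors lead to NF-kB and MAP kinase activity, and a death domain, as in Fas, Tnfrsf1a and Tnfrsf25, can recruit FADD or TRADD and caspase-8. In T cells the TRAF-binding receptors Tnfrsf4 (OX40), Tnfrsf9 (4-1BB), Tnfrsf18 (GITR) and Cd27 are known as costimulators that add to the signal of the T cell receptor.

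Values are on the log2 scale, as deposited, so a difference of 1 is a 2-fold difference. A gene was called when limma gave an adjusted p under 0.05 over the 11178 tested genes and the difference was at least 1. The deposited values lay higher in Tfh throughout: the 65th percentile was 6.91 and 6.98 in the Tfh arrays, against 5.23 to 5.31 in the cultured arrays. Set against Th1, Th2 and Th17, the median gene was 0.85, 0.84 and 0.83 higher in Tfh. Quantile normalization turned these shifts to -0.16 in each case, and giving the arrays the same median over tested genes turned them to -0.36, -0.37 and -0.33. Some Tfh differences are therefore also given relative to the median gene, and the text says where. Every other Tfh difference, unless a scaling is named, is as deposited and still holds this general rise in Tfh. Calls that held as deposited and in both other scalings are named as held in all 3 scalings. Because those scalings lower Tfh on balance, this test is weak for genes lower in Tfh. The replicates differed in spread: 11 genes differed by more than 1 between the Tfh arrays, against 1435, 696 and 1339 between the Th1, Th2 and Th17 arrays. The members differed by at most 0.22 between the Tfh arrays and by up to 0.77, 1.75 and 1.80 between the Th1, Th2 and Th17 arrays.

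Labelled identity was checked by marker genes. Cxcr5 stood at 11.25 and 11.20 in Tfh and between 3.34 and 8.12 in the cultured arrays. The Tfh cells were sorted as CXCR5+, so this gene is no separate check of their identity. Bcl6 stood at 11.99 and 11.91 in Tfh and between 6.33 and 8.62 in the cultured arrays. Il4 was highest in Th2, at 15.20 and 15.57, and Il17a in Th17, at 14.35 and 13.93. Ifng was highest in Th1, at 15.39 and 15.07, with Th2 replicate 1 next at 14.12 and Th17 replicate 1 at 13.30. Lineage genes were not confined to their labelled group: Il4 was 6.11 in Th1 replicate 1 and 10.60 in Th1 replicate 2, and in Tfh Gata3 stood at 10.67 and 10.52. Of the other Th1 markers, Tbx21 stood at 10.66 and 10.59 in Tfh, at 10.89 and 9.43 in Th1 and between 7.38 and 8.82 in Th2 and Th17. Cxcr3 stood at 11.30 and 11.23 in Tfh, at 7.06 and 9.60 in Th1, at 8.22 and 8.28 in Th2 and at 8.78 and 9.09 in Th17. Of 5 T cell genes 3 were called higher in Tfh than the cultured mean, where 43.7% of all tested genes were. Cd3e was 1 of the 3, at 13.03 and 12.97 in Tfh and between 9.71 and 10.77 in the cultured arrays. Foxp3, the defining factor of regulatory T cells, stood at 10.79 and 10.73 in Tfh and between 2.36 and 2.40 in the cultured arrays. Markers of some other cells also differed between the groups. The mean level of 6 granulocyte genes was 12.86 to 12.92 in Tfh. It was 2.50 to 2.57 in Th1, 2.51 to 5.81 in Th2 and 2.48 to 3.60 in Th17. Set against the mean of the cultured groups all 6 were called higher in Tfh. Of these, Camp and Ltf lay under the filter level of 3.13 on every cultured array, and Ngp and Lcn2 on all but Th2 replicate 1. They passed the filter only through the Tfh arrays, so their calls are no test and only their levels count. The same holds for Foxp3 among the regulatory T cell genes counted next. Of 4 tested B cell genes 3 were called higher, of 6 myeloid genes 1, and of 5 regulatory T cell genes 2, with 1 called lower. Of all tested genes 43.7% were called higher and 6.66% lower in this comparison. The 6 B cell genes on the array averaged 6.05 to 6.08 in Tfh and 3.14 to 5.35 in cultured arrays, and 2 of them stayed under the filter level in both Tfh arrays. The 6 myeloid genes averaged 7.16 to 7.21 in Tfh and 2.52 to 7.69 in cultured arrays. The 5 regulatory T cell genes averaged 11.34 to 11.37 in Tfh and 7.99 to 8.96 in cultured arrays. Their part in the receptor differences was not tested. In such bulk samples fewer cells of a type and less RNA per cell cannot be told apart.

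Against each cultured group, several receptors were higher in Tfh and, as deposited, none was called lower. As deposited, 4 of the 8 members were called higher in Tfh than in Th1, against 42.8% of all tested genes, and 0 lower, against 6.16%. Against Th2, 5 were called higher (42.8% of all genes) and 0 lower (6.89%). Against Th17, 5 were called higher (41.8% of all genes) and 0 lower (6.17%). Against the mean of the 3 cultured groups, 5 were called higher (43.7% of all genes) and 0 lower (6.66%). At an unadjusted p under 0.05 in limma, 1 member was lower in Tfh than in Th2 and 0 were lower in the other Tfh comparisons. The share of all genes at that threshold was not counted. Counts of 4 or 5 of the 8 members called higher are near the shares of all genes called higher. The median difference of the members was 1.18, 2.07, 1.55 and 1.58 against Th1, Th2, Th17 and their mean, where all tested genes had 0.85, 0.84, 0.83 and 0.84. Both Tfh arrays lay above all 6 cultured arrays for 5 of the 8 members (62.5%), a pattern that 60.5% of all tested genes also had. The 4 comparisons share the Tfh arrays.

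The absence of lower calls depended on the scaling. After the median shift Tnfrsf4 and Tnfrsf18 were called lower in Tfh than in Th1 and than in Th2, beside 2 and 3 members called higher. Tnfrsf4 was also called lower than the cultured mean, beside 2 called higher. After that shift 1605 of the 11178 tested genes were called higher and 3190 lower in Tfh than in Th1. Against Th2 these were 1680 and 3248, and against the mean 1653 and 3233. Fewer higher calls held in all 3 scalings: 2 members against Th1 (12.4% of all genes), 3 against Th2 (13.0%), 2 against Th17 (11.6%) and 2 against the mean (12.7%). Tnfrsf1b made up 1 of these in each comparison. Tnfrsf25 held against Th1, Th2 and the mean, Cd27 against Th17 and Fas against Th2.

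**Figure D1:**
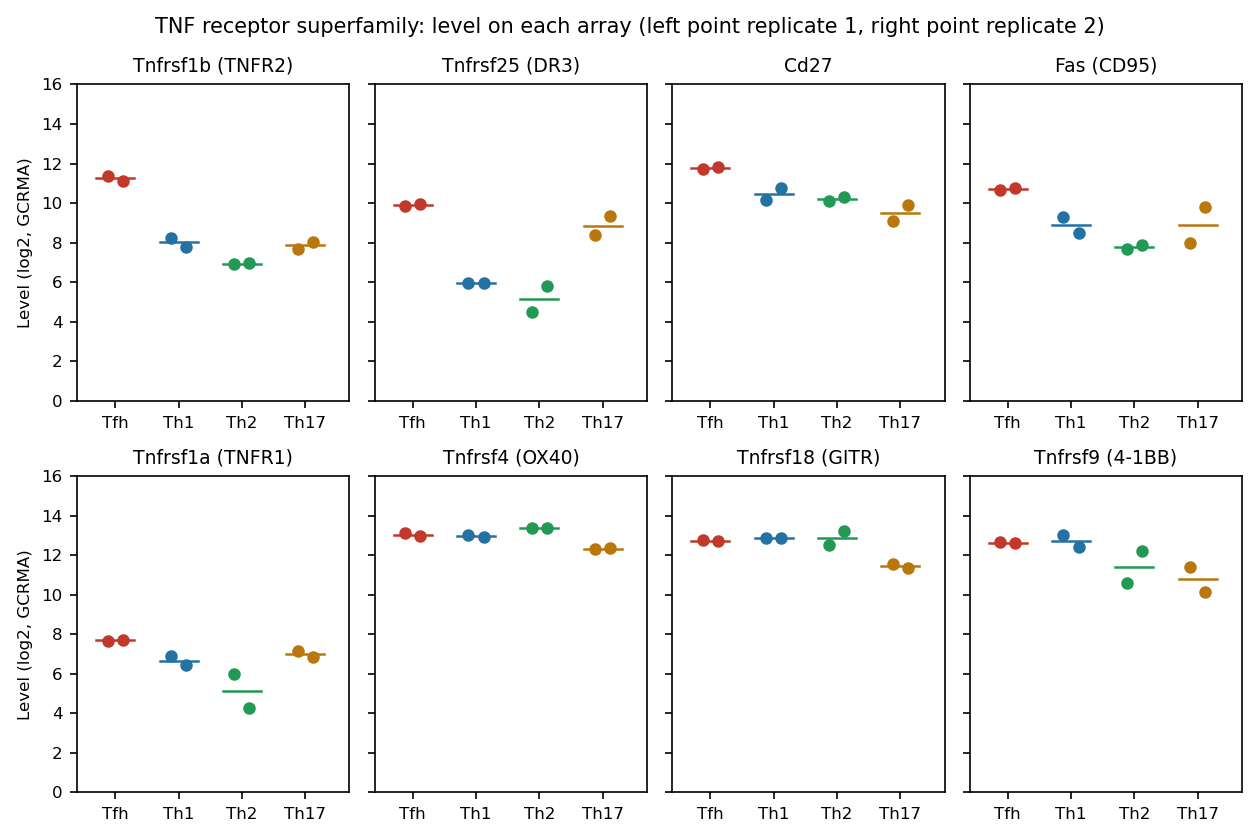
Level of each of the 8 measured receptors on each array (log2, as deposited), with Tfh left and Th1, Th2 and Th17 to its right; points are single arrays and the short line is the group mean. For Tnfrsf1b, Tnfrsf1a, Tnfrsf25, Cd27 and Fas both Tfh arrays lie above all 6 cultured arrays, and Cd27, Tnfrsf4, Tnfrsf9 and Tnfrsf18 have their lowest mean in Th17.

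The receptors of TNF itself come first. Tnfrsf1b encodes TNFR2, the TNF receptor without a death domain, known for its use on activated and regulatory T cells. Tnfrsf1b stood at 11.36 and 11.14 in Tfh, at 8.25 and 7.79 in Th1, at 6.91 and 6.96 in Th2 and at 7.70 and 8.06 in Th17. The Tfh arrays lay above every cultured array, Th1 replicate 1 being the highest of these, and Th1 and Th17 overlapped. Tnfrsf1b was 3.23 higher in Tfh than in Th1 (SE 0.23, 9.39-fold, adjusted p = 0.000137), 4.32 higher than in Th2 (SE 0.23, adjusted p = 4.45e-05) and 3.37 higher than in Th17 (SE 0.23, 10.4-fold, adjusted p = 0.000123). Relative to the median gene these differences were 2.38, 3.48 and 2.55, and no alternative ended the calls. Tnfrsf1b was 3.64 above the mean of the cultured groups (SE 0.18, adjusted p = 2.83e-05). Its second probe set gave 8.27 and 8.44 in Tfh, 6.85 and 5.63 in Th1, 5.18 and 4.95 in Th2 and 5.73 and 5.54 in Th17, with differences of 2.11, 3.29 and 2.72, all called. Ranks within the array were taken over the 18193 genes, each by its main probe set. Tnfrsf1b ranked between the 89.5 and 90.9 percentiles in Tfh, against 70.7 to 74.1 in Th1, 63.6 to 64.8 in Th2 and 69.4 to 72.4 in Th17.

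Tnfrsf1a encodes TNFR1, the death domain receptor for TNF and lymphotoxin. Tnfrsf1a stood at 7.66 and 7.73 in Tfh, at 6.88 and 6.45 in Th1, at 6.01 and 4.27 in Th2 and at 7.15 and 6.83 in Th17. All 6 cultured arrays lay below the Tfh arrays, with Th2 replicate 2 lowest and the Th1 and Th17 arrays overlapping. The call was against Th2 alone among the single groups, 2.56 higher in Tfh (SE 0.56, adjusted p = 0.00886, relative to the median gene 1.72), and it ended in both other scalings and when Tfh replicate 2 was left out (adjusted p = 0.05004). It was 3.43 without Th2 replicate 1 and 1.68 without Th2 replicate 2. The differences from Th1, 1.03 (adjusted p = 0.156, 95% interval -0.36 to 2.42), and from Th17, 0.70 (adjusted p = 0.312, 95% interval -0.69 to 2.09), were not called as deposited. The difference from Th1 was called without either Th2 array (adjusted p = 0.0219 and 0.0221). Against the mean of the cultured groups it was 1.43 higher (SE 0.46, adjusted p = 0.0324), but -0.13 after quantile normalization and 0.24 after the median shift. Without either Tfh array, Th1 replicate 2 or either Th17 array this call ended (adjusted p = 0.0521 to 0.145). Within the array Tnfrsf1a ranked between the 60.9 and 61.1 percentiles in Tfh, below the 61.6 to 63.9 of Th1 and the 63.5 to 64.9 of Th17. Tnfrsf1a in Tfh thus stood above Th1 and Th17 by deposited level and below them by rank within the array.

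Among the other death domain receptors, Fas is the receptor for Fas ligand, known for apoptosis of activated lymphocytes. Fas stood at 10.65 and 10.74 in Tfh, at 9.28 and 8.51 in Th1, at 7.68 and 7.86 in Th2 and at 8.00 and 9.80 in Th17. The Tfh arrays lay above all others, and the wide Th17 pair spanned the Th1 pair. Fas was 2.92 higher in Tfh than in Th2 (SE 0.59, 7.59-fold, adjusted p = 0.00639, relative to the median gene 2.09), which held in all 3 scalings. It was 1.80 higher than in Th1 (SE 0.59, adjusted p = 0.0382, relative 0.95) and 1.80 higher than in Th17 (SE 0.59, adjusted p = 0.0388, relative 0.97), as deposited only. Without either Tfh array, either Th1 array or either Th2 array the first of these calls ended (adjusted p = 0.0540 to 0.156), and without either Tfh array, either Th2 array or Th17 replicate 1 the second did (adjusted p = 0.0645 to 0.138). The difference from Th17 was 0.89 without Th17 replicate 1 and 2.70 without Th17 replicate 2. Fas was 2.17 above the mean of the cultured groups (SE 0.48, adjusted p = 0.00813), not called after either other scaling or when either Tfh array was left out (adjusted p = 0.0527 and 0.0593).

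Tnfrsf25 encodes DR3, a death domain receptor that costimulates T cells when bound by the ligand TL1A. Tnfrsf25 stood at 9.84 and 9.97 in Tfh, at 5.97 and 5.97 in Th1, at 4.49 and 5.80 in Th2 and at 8.39 and 9.35 in Th17. The 4 groups did not overlap, in the order Tfh, Th17, Th1 and Th2. In Tfh it was 3.94 higher than in Th1 (SE 0.50, 15.3-fold, adjusted p = 0.00113, relative to the median gene 3.09) and 4.76 higher than in Th2 (SE 0.50, 27.2-fold, adjusted p = 0.000523, relative 3.93), both held in all 3 scalings. From Th17 it differed by 1.04 (adjusted p = 0.120, 95% interval -0.21 to 2.29), or 0.21 relative to the median gene, and by -0.080 after quantile normalization. Tnfrsf25 was 3.25 above the mean of the cultured groups (SE 0.41, adjusted p = 0.000820).

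**Figure D2:**
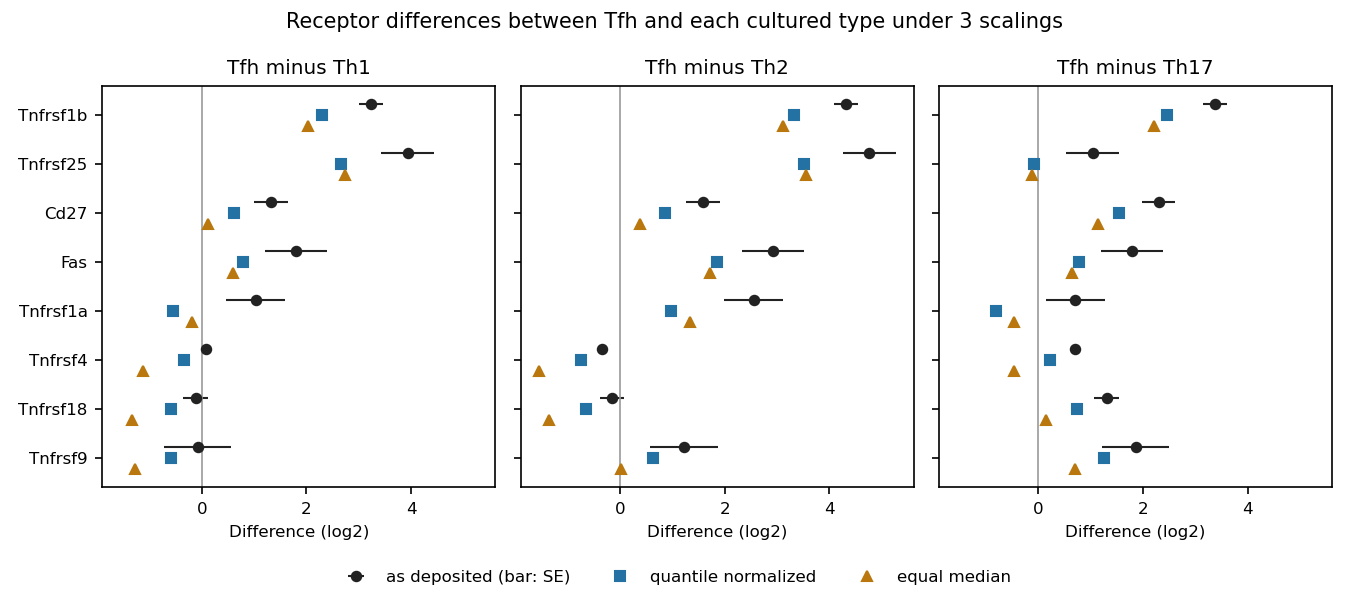
Difference in level (log2) of each of the 8 receptors, Tfh minus each cultured group, as deposited (black points, bars for 1 SE), after quantile normalization (blue squares) and after the median shift (orange triangles). Tnfrsf1b stays well above 0 against every cultured group in all 3 scalings, Tnfrsf25 does so against Th1 and Th2 but falls to -0.080 and -0.12 against Th17, and Tnfrsf1a changes sign against Th1 and Th17.

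Cd27, a costimulator bound by CD70 and often lowered on cells that have differentiated further, was higher in Tfh than in every cultured group. Cd27 stood at 11.74 and 11.84 in Tfh, at 10.17 and 10.76 in Th1, at 10.11 and 10.30 in Th2 and at 9.08 and 9.91 in Th17. Every cultured array lay below both Tfh arrays, Th1 and Th2 overlapped, and Th17 lay lowest. Cd27 was 2.30 higher in Tfh than in Th17 (SE 0.32, 4.92-fold, adjusted p = 0.00161, relative 1.47), a call that held in all 3 scalings. The differences of 1.33 from Th1 (SE 0.32, adjusted p = 0.0129, relative 0.48) and 1.59 from Th2 (SE 0.32, adjusted p = 0.00631, relative 0.75) did not hold in the other scalings. Without Tfh replicate 1, Tfh replicate 2 or Th1 replicate 1 the call against Th1 ended (adjusted p = 0.0564, 0.0677 and 0.0589). Cd27 was 1.74 above the mean of the cultured groups (SE 0.26, adjusted p = 0.00165), still called after quantile normalization at 1.00 and not after the median shift at 0.55.

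Tnfrsf4, Tnfrsf9 and Tnfrsf18 are induced on T cells by activation. Like Cd27 they had their lowest mean in Th17, but none of the 3 had both Tfh arrays above all cultured arrays. Tnfrsf4 stood at 13.10 and 12.94 in Tfh, at 12.99 and 12.89 in Th1, at 13.38 and 13.35 in Th2 and at 12.29 and 12.36 in Th17. Th2 lay above all other groups, Tfh and Th1 overlapped, and Th17 lay below the rest. Tnfrsf4 differed between Tfh and Th1 by 0.08 (adjusted p = 0.500, 95% interval -0.16 to 0.32) and was 0.35 lower in Tfh than in Th2 (log2 difference -0.35, SE 0.10, adjusted p = 0.0222) and 0.69 higher than in Th17 (SE 0.10, adjusted p = 0.00165), differences under the size needed for a call. Within the array Tnfrsf4 ranked at the 97.5 to 97.9 percentiles in Tfh, 98.3 to 98.5 in Th1, 98.8 in Th2 and 97.3 to 97.4 in Th17. After the median shift it was called lower in Tfh than in Th1 and Th2, by -1.13 and -1.56.

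Tnfrsf18 stood at 12.77 and 12.70 in Tfh, at 12.85 and 12.85 in Th1, at 12.53 and 13.24 in Th2 and at 11.54 and 11.33 in Th17. The Th1 and Th2 arrays overlapped, and the Th17 pair lay below all others. Tnfrsf18 was 1.30 higher in Tfh than in Th17 (SE 0.23, 2.47-fold, adjusted p = 0.00417, relative to the median gene 0.48), not called after the other scalings, at 0.73 and 0.14. It differed from Th1 by -0.12 (adjusted p = 0.677, 95% interval -0.69 to 0.46) and from Th2 by -0.15 (adjusted p = 0.590, 95% interval -0.73 to 0.42), and both became calls, -1.32 and -1.36, after the median shift.

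Tnfrsf9 stood at 12.67 and 12.59 in Tfh, at 13.01 and 12.41 in Th1, at 10.59 and 12.23 in Th2 and at 11.42 and 10.13 in Th17. Tfh and Th1 overlapped at the top, and Th2 and Th17 overlapped below them. Tnfrsf9 was 1.86 higher in Tfh than in Th17 (SE 0.64, adjusted p = 0.0456, relative 1.03), and this call ended in both other scalings, on the second probe set (1.13, adjusted p = 0.112) and without either Tfh array, either Th1 array or Th17 replicate 2 (adjusted p = 0.0644 to 0.198), the last giving 1.21. Against Th2 the difference was 1.22 (adjusted p = 0.142), and it was called without Th2 replicate 2, at 2.04 (adjusted p = 0.0356), as was the difference from the mean (1.27, adjusted p = 0.0400) where all arrays gave 1.00 (adjusted p = 0.135). The second probe set stood at 12.06 and 12.02 in Tfh, at 13.16 and 12.71 in Th1, at 10.91 and 12.35 in Th2 and at 11.39 and 10.43 in Th17, so that on it Th1 lay above Tfh. The remaining probe set stayed between 1.81 and 1.84 on every array.

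Promoters of these 3 receptors and of Tnfrsf25 are shown because the 4 genes lie on chromosome 4, and Th17 was the lowest group for the 3 and the highest cultured group for Tnfrsf25. Sequences are from RefSeq, build GRCm38.p6, read 5′ to 3′ on the gene's strand, from 250 bases before to 50 bases after the start site. Of the 8 members 5 lie on chromosome 4 (Tnfrsf1b, Tnfrsf4, Tnfrsf9, Tnfrsf18 and Tnfrsf25), Cd27 and Tnfrsf1a on chromosome 6 and Fas on chromosome 19. Between Tnfrsf4 and Tnfrsf18 the annotation holds only Gm16008, a lncRNA, and Gm25982, an snRNA. Capitals mark the matches to an NF-kB motif or to the AP-1 motif TGANTCA, searched on both strands. Tnfrsf9 and Tnfrsf25 have 2 start sites each, and only start site 2, the one with matches, is shown. Start site 1 of both held no match. Tnfrsf1b, also on chromosome 4, held none and is not shown. Which start site these cells used was not measured.
Tnfrsf4, chr4:156013445-156013744, plus strand: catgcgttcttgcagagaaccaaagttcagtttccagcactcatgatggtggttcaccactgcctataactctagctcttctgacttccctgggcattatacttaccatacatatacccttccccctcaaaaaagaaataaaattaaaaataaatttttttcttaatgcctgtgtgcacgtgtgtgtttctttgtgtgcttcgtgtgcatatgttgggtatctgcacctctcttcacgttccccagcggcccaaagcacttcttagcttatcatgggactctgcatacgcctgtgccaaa
Tnfrsf18, chr4:156026072-156026371, plus strand: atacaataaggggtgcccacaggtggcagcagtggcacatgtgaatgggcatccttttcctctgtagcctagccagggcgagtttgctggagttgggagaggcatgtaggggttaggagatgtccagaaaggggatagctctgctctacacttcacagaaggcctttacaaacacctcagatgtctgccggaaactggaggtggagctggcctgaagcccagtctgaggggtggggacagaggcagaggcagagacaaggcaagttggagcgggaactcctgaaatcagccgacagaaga
Tnfrsf9, start site 2, chr4:150927749-150928048, plus strand: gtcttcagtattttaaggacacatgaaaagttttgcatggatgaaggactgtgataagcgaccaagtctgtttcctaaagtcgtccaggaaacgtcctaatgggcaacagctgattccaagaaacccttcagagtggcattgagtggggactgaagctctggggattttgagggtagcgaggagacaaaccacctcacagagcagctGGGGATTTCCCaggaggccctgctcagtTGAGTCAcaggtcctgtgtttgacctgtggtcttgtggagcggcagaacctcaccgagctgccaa
Tnfrsf25, start site 2, chr4:152116093-152116392, plus strand: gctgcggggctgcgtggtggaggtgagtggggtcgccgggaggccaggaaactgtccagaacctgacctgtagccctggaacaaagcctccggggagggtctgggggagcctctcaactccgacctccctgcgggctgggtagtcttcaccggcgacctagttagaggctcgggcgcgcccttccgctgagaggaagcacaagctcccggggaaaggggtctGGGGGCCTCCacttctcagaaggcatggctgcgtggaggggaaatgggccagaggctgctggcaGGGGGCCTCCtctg

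Tnfrsf9 holds 2 overlapping NF-kB matches from -43 to -33 and an AP-1 match from -15 to -9 relative to its start site 2. Tnfrsf25 holds NF-kB matches from -28 to -19 and from 36 to 45 relative to its start site 2. Fas holds an AP-1 match from -211 to -205, and no other of the 10 start sites of the 8 members matched either motif. Of all 32851 promoters of this length, 8.46% hold the NF-kB motif and 7.81% hold AP-1. A match describes the letters alone.

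Few receptors were called between the cultured groups. The comparison of Th1 with Th2 called 0 of 8 members higher and 0 lower, against 0.349% and 0.895% of all genes, and at an unadjusted p under 0.05 in limma 2 were higher and 1 lower. For Th1 against Th17, 0 were called higher and 0 lower, against 0.0626% and 0.0805% of all genes, with 4 higher and 1 lower at that unadjusted threshold. For Th2 against Th17, 1 was called higher and 0 lower, against 0.483% and 0.188% of all genes, with 2 higher and 3 lower unadjusted. These percentages are for calls. The share of all genes at the unadjusted threshold was not counted, so the unadjusted counts cannot be set against all genes.

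The 1 call was Tnfrsf4, 1.04 higher in Th2 than in Th17 (SE 0.10, 2.06-fold, adjusted p = 0.0154, 95% interval 0.80 to 1.28), with no overlap between the pairs. It was 0.98 after quantile normalization, under the size needed, and the call ended when Tfh replicate 1, Tfh replicate 2 or Th2 replicate 1 was left out (adjusted p = 0.0669, 0.0665 and 0.0703) and in the cultured arrays alone (adjusted p = 0.0642). Tnfrsf18 was 1.46 higher in Th2 than in Th17 (SE 0.23, adjusted p = 0.0792) and was called without Th2 replicate 1 at 1.81 (adjusted p = 0.0150). Tnfrsf18 in Th1 was 1.42 above Th17 (adjusted p = 0.139). Tnfrsf25 ran the other way, with a difference of -3.73 in Th2 against Th17 (SE 0.50, 13.2-fold, adjusted p = 0.05004, just over the threshold), called without Th2 replicate 2 at -4.38 (adjusted p = 0.0247). In Th1 against Th17 the difference in Tnfrsf25 was -2.90 (SE 0.50, adjusted p = 0.157, 95% interval -4.14 to -1.65). Tnfrsf9 was 1.93 higher in Th1 than in Th17 (adjusted p = 0.402, 95% interval 0.34 to 3.52), and Tnfrsf1b 1.09 higher in Th1 than in Th2 (adjusted p = 0.102, 95% interval 0.53 to 1.65). Tnfrsf1a differed by -1.85 in Th2 against Th17 (adjusted p = 0.242), called without Th2 replicate 1 at -2.73 (adjusted p = 0.0498).

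**Figure D3:**
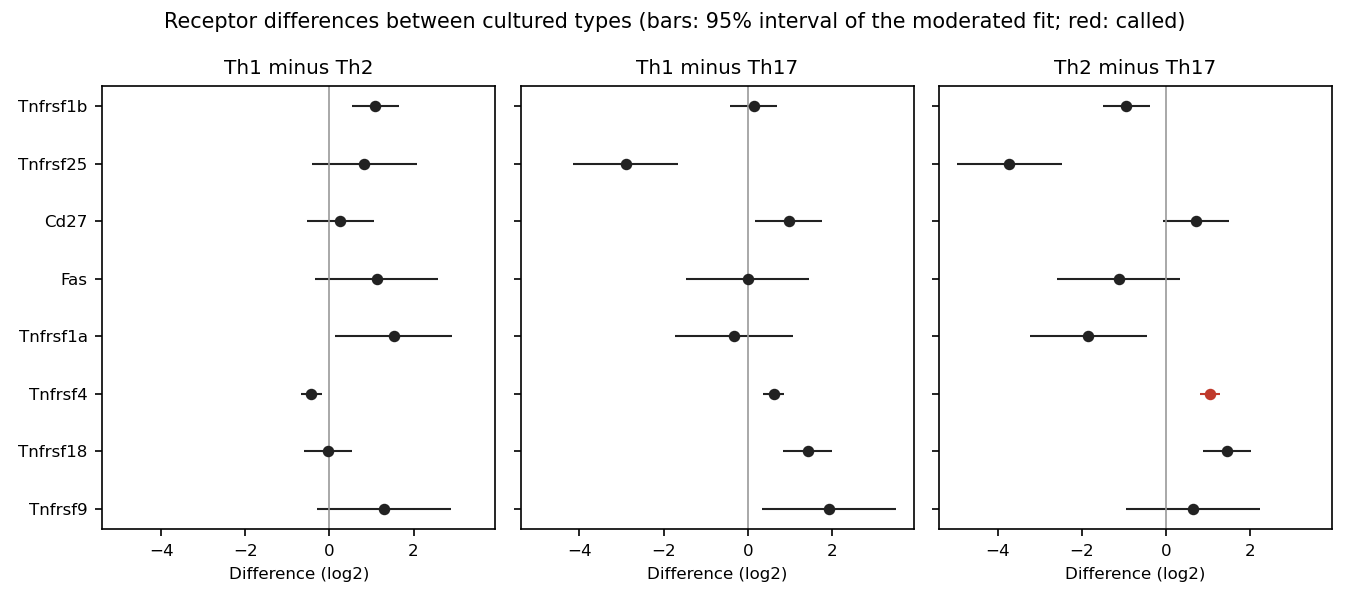
Difference in level (log2) of each of the 8 receptors between pairs of cultured groups, with bars for the 95% interval and the called value in red. Tnfrsf4 in Th2 against Th17, at 1.04, is the only call, and Tnfrsf25 lies at -3.73 in the same pair with a wider interval.

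Likeness between genes across the 8 arrays was measured as the root mean square difference of their log2 values after each gene's own mean was removed. A gene that did not vary would lie at each member's own root mean square, so a distance counts as likeness only where it is well under that value. Tnfrsf4 and Tnfrsf18 had the smallest distance, 0.36, but Tnfrsf4 itself varied by only 0.38 and Tnfrsf18 by 0.63, and Tnfrsf9 and Tnfrsf18 lay 0.67 apart, so neither distance shows a shared pattern. Tnfrsf1b and Fas lay 0.74 apart, where their own values were 1.64 and 1.16. Both genes had both Tfh arrays above all 6 cultured arrays in the deposited values, as had 60.5% of all tested genes. Their distance was therefore not shown to be particular to this pair. Tnfrsf18 and Tnfrsf25 were farthest apart at 2.35. The median distance of all candidates was between 0.69 and 1.83 for the 8 members. A nearest gene is the smallest of all these distances, taken on the deposited values. Among 10694 candidate genes, the nearest to Tnfrsf1b was Pacs1 at 0.19, to Cd27 was Spice1 at 0.11 and to Fas was Trib2 at 0.15. The nearest to Tnfrsf4 was Hsd17b12 at 0.13, to Tnfrsf18 was Errfi1 at 0.21 and to Tnfrsf9 was Cmtm7 at 0.37. Tnfrsf1a was nearest to Bbs4 at 0.37, and Tnfrsf25, whose own values varied most, was nearest to Card6 at 0.61.

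Among the ligands, 2 of 6 were called lower in Tfh than the cultured mean, where 6.66% of all tested genes were, and 0 higher, against 43.7%. Of 8 listed ligands 6 were measured, and Tnfsf15 and Tnfsf18 were not analysed here. Cd70, which binds CD27, stood at 2.36 and 2.34 in Tfh, at 8.68 and 7.97 in Th1, at 6.70 and 6.93 in Th2 and at 7.36 and 4.91 in Th17. The Tfh values lay under the filter level and every cultured value above it. Cd70 is among these 2 calls, but it passed the filter only through the cultured arrays. Its Tfh level is at the low end of the scale, so only its levels are given. Its receptor Cd27 was higher in Tfh as deposited, but of its calls only that against Th17 held in all 3 scalings. Tnfsf9, the ligand of Tnfrsf9, stood at 7.56 and 7.69 in Tfh, at 10.14 and 9.92 in Th1, at 8.99 and 9.35 in Th2 and at 8.48 and 10.03 in Th17, with a difference of -1.86 from the mean (SE 0.40, adjusted p = 0.00698). Tnfsf9 was called lower in Tfh against each cultured group and in all 3 scalings. The other scalings lower Tfh on balance, so they are a weak test of this. Set against the median gene, the difference of Tnfsf9 from the mean was -2.70. For Tnfsf9 the call against the mean ended without Tfh replicate 1 (adjusted p = 0.0543), that against Th2 without either Tfh, Th1 or Th2 array (adjusted p = 0.0524 to 0.132), and that against Th17 without either Tfh array (adjusted p = 0.113 and 0.0942) or Th17 replicate 2 (difference -0.86).

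Lta, lymphotoxin alpha, stood at 10.13 and 9.93 in Tfh, at 11.66 and 10.88 in Th1, at 8.18 and 7.45 in Th2 and at 10.56 and 11.58 in Th17. The Th2 pair lay below all others. Lta was 3.46 higher in Th1 than in Th2 (SE 0.45, 11.0-fold, adjusted p = 0.0302), called in all 3 scalings but not without either Tfh array, Th1 replicate 1 or either Th2 array (adjusted p = 0.0705 to 0.127). Tnf and Lta were 2.08 and 2.22 higher in Tfh than in Th2 (adjusted p = 0.0340 and 0.00641), as deposited only, and the Tnf call ended without either Tfh or Th2 array (adjusted p = 0.0692 to 0.141). In both other scalings Lta was instead called lower in Tfh than in Th1, at -2.26 and -2.45, and than in Th17, at -2.06 and -2.20. As deposited Lta differed by -1.24 from Th1 (adjusted p = 0.0515), called without Th1 replicate 2 (-1.63, adjusted p = 0.0457) or either Th17 array (adjusted p = 0.0337 and 0.0338), and by -1.04 from Th17 (adjusted p = 0.0886), called without Th17 replicate 1 (-1.55, adjusted p = 0.0366). Fasl differed by -1.57 from the mean of the cultured groups (adjusted p = 0.180), called without Th17 replicate 1 (-2.09, adjusted p = 0.0390), and Tnfsf4, the OX40 ligand, by -0.62 (adjusted p = 0.339).

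**Figure D4:**
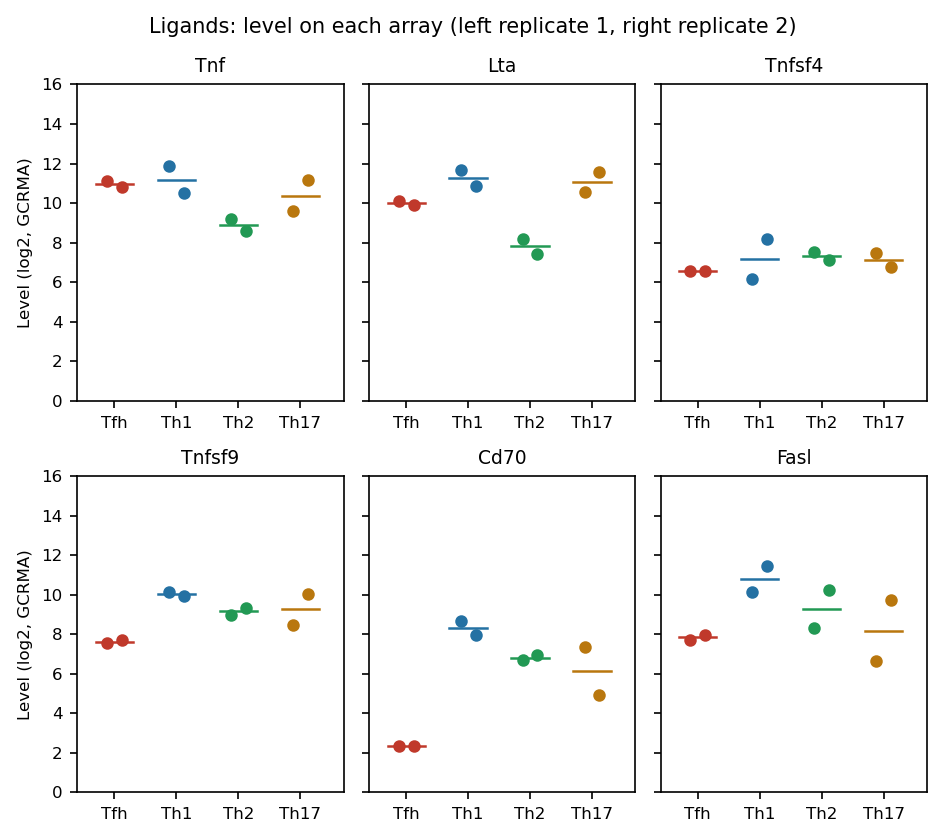
Level of 6 ligands of the receptors on each array (log2, as deposited), with Tfh left and Th1, Th2 and Th17 to its right, each point 1 array. Cd70 stands at 2.36 and 2.34 in Tfh and between 4.91 and 8.68 in the cultured arrays, and Lta is lowest in Th2.

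Most adaptors and regulators that carry the receptors' signals were called higher in Tfh as deposited. Of 16 listed genes 14 were tested, and Ripk1 and Traf3 were not analysed here. Against the mean of the cultured groups 12 were called higher, 0 lower and 2 neither, where 43.7% of all tested genes were called higher and 6.66% lower. The calls of Casp8, Traf1 and Cyld ended without either Tfh array, and that of Cyld also without Th17 replicate 1. At an unadjusted p under 0.05 in limma 1 of the 14 was lower, a threshold at which the share of all genes was not counted. The median difference was 1.63 where all genes had 0.84. In all 3 scalings 3 of the 14 were called higher, against 12.7% of all genes. These were Traf5, an adaptor of OX40 and CD27, at 3.05 (SE 0.26, adjusted p = 0.000173), Map3k14 (NIK), the kinase of the non-canonical NF-kB route, at 2.80 (SE 0.20, adjusted p = 9.4e-05), and Tradd, the TNFR1 adaptor, at 2.76 (SE 0.17, adjusted p = 6.5e-05). Traf5 stood at 9.45 and 9.46 in Tfh and between 5.61 and 6.99 in the cultured arrays. Called as deposited were also the NF-kB inhibitor Tnfaip3 at 1.93, the caspase-8 inhibitor Cflar at 1.68 and the ubiquitin ligase Birc2 at 1.68. Siva1, a protein that binds CD27, differed by -0.76 from the mean (adjusted p = 0.00415), under the size needed, and was called lower in Tfh than in Th1 at -1.08 (adjusted p = 0.00284). That call needed Tfh replicate 1 and Th1 replicate 2, without which the difference was -0.96 and -0.99. In the pairs of cultured groups limma called 0 of the 14.

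Of 19 other receptors of the family on the array 12 were tested. Against the mean of the cultured groups 3 were called higher in Tfh, 2 lower and 7 neither, where 43.7% of all tested genes were called higher and 6.66% lower, and none of the higher calls held in all 3 scalings. In 4 of these 5 calls 1 side lay under the filter level of 3.13, so that the gene passed only through the arrays where it was high, and for these 4 only levels are given. Tnfrsf14 (HVEM) stood at 4.38 and 4.36 in Tfh and between 2.32 and 2.37 in the cultured arrays, all of which lay under the filter level. Tnfrsf22 and Tnfrsf23 are decoy receptors for TRAIL in mouse. Tnfrsf22 was 1.94 higher (SE 0.18, adjusted p = 0.000221), at 6.66 and 6.62 in Tfh and between 4.32 and 4.93 in the cultured arrays. Tnfrsf23 stood at 3.51 and 3.78 in Tfh and between 2.22 and 2.64 in the cultured arrays, under the filter level. Tnfrsf21 (DR6) stood at 2.95 and 2.76 in Tfh, under the filter level, and between 4.00 and 4.60 in the cultured arrays. Tnfrsf8 (CD30), known on activated T cells, stood at 2.68 and 2.66 in Tfh, at 7.52 and 2.35 in Th1, at 6.82 and 8.33 in Th2 and at 7.93 and 6.70 in Th17. The Th1 arrays disagreed, with replicate 2 below the Tfh arrays, and these 3 values lay under the filter level. The call of lower Tnfrsf8 in Tfh ended without either Tfh, Th2 or Th17 array.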

How the data were processed

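Transcript levels were measured on 8 Affymetrix mouse arrays of 45101 probe sets. The deposited values are log2 values that the authors made with GCRMA, per the submitters' processing notes; which arrays were normalized together was not given in the sources used here. They were tested as deposited, and the number of arrays limits the precision. Names and sequences came from the array annotation and RefSeq tables of GRCm38.p6; 34945 probe sets had 1 symbol, 932 several, 9160 none, and 64 were controls.

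Per gene the probe set with the highest mean was kept, and the filter kept genes that exceeded the 50th percentile of the whole data (3.13) on 2 or more arrays. limma 3.58.1 in R 4.3.3 fitted 1 coefficient per group over 8 arrays with a variance trend (4 residual and 1.78 prior degrees of freedom), two-sided, with Benjamini-Hochberg adjustment. The fit was tested on simulated data.

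The members, the lists of ligands, adaptors, other receptors and markers, and the tests were chosen with earlier results of these data known. Named were all members, their nearest genes by distance, and list genes with the smallest adjusted p. Leaving out arrays for the lists was added after the data were seen. Alternatives were 2 other scalings, no filter, other probe sets, percentile rank, no variance trend, leaving out each array, the replicate block, Tfh arrays averaged, and cultured arrays alone.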

Additional observations from a re-analysis of the deposited data

How the results depend on the processing

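Over the alternatives, 819 of 925 values kept direction and side of the threshold, 61 lost a call, 15 gained one and 30 reversed. Several alternatives, such as no filter, no variance trend or the replicate block, leave the difference itself unchanged, so direction could not reverse there and the total is a weak test. After quantile normalization 40 values stayed the same, 9 lost a call and 7 reversed. After the median shift 34 stayed the same, 10 lost a call, 3 gained one and 9 reversed. Counts of members called that moved by over 1.5 times were, after quantile normalization, 2 against Th1, 3 against Th2, 2 against Th17, 3 against the mean, and 0 in Th2 against Th17. Of all 11178 tested genes this scaling called 1747 higher and 2365 lower against Th1, and 1803 and 2381 against Th2. Against Th17 these were 1561 and 2266, and in Th2 against Th17 60 and 24. After the median shift the counts of members were 2 higher against Th17, and 3 against the mean, 2 higher and 1 lower. That shift left the totals against Th1 and Th2 at 4 and 5, but as 2 higher and 2 lower against Th1 and 3 higher and 2 lower against Th2. Of all 11178 tested genes it called 1605 higher and 3190 lower against Th1, 1680 and 3248 against Th2, and 1514 and 2903 against Th17. With the Tfh arrays averaged as 1 replicate fewer members were called against Th1, Th17 and the mean, and fewer of all tested genes were called as well. For Th2 against Th17 the count of members was 2 with the mean over probe sets, where 51 of all genes were called higher and 20 lower. Without the variance trend it was 2, where all genes gave 62 and 31. In the cultured arrays alone the count of members was 0, where all genes gave 21 and 5. With the replicate number as a block in limma it was 2, with Tnfrsf25 gained (adjusted p = 0.0447), where all genes gave 44 and 17. Tnfrsf9 in Tfh against Th17 lost its call with the block (adjusted p = 0.0666). Replicate deviations correlated at 0.255 between Th1 and Th17 and 0.268 between Th2 and Th17. In the other 4 pairs of groups they correlated at -0.002 to 0.042. The labels name no shared batch, so the numbers were not taken as pairs, though a shared factor in the Th17 comparisons was not tested. S100a8, a granulocyte gene, was 11.10 and 3.04 in the Th2 arrays (replicates 1 and 2) and 6.66 and 2.87 in the Th17 arrays. Leaving out 1 array gave 2 to 4 calls against Th1, 3 to 4 against Th17, 3 to 6 against the mean and 0 to 2 in Th2 against Th17. Over all genes, calls in Tfh against the mean were 1756 higher and 2463 lower after quantile normalization and 1653 and 3233 after the median shift, against 4887 and 745 as deposited.

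Directions reversed as follows. After quantile normalization Tnfrsf1a was -0.55 against Th1, -0.80 against Th17 and -0.13 against the mean, Tnfrsf4 -0.34 against Th1 and -0.29 against the mean, Tnfrsf25 -0.080 against Th17 and Tnfrsf18 -0.17 against the mean. After the median shift Tnfrsf1a was -0.18 against Th1 and -0.46 against Th17, Tnfrsf4 -1.13 against Th1, -0.47 against Th17 and -1.05 against the mean, Tnfrsf25 -0.12 against Th17, Tnfrsf9 -0.19 and Tnfrsf18 -0.85 against the mean, and Fas 0.044 in Th1 against Th17. By percentile rank Tnfrsf4 was -0.48 and Tnfrsf18 -0.17 points against the mean. The dim remaining probe set of Tnfrsf9 gave -0.0036 against Th2 and -0.0033 against the mean. Leaving out 1 array, Tnfrsf9 ranged from -0.38 to 0.23 in Tfh against Th1 and -0.18 to 1.45 in Th2 against Th17, Tnfrsf18 from -0.51 to 0.21 in Tfh against Th2 and -0.39 to 0.32 in Th1 against Th2, Cd27 from -0.033 to 0.56 in Th1 against Th2, Tnfrsf1b from -0.089 to 0.37 and Fas from -0.90 to 0.90 in Th1 against Th17. The cause was not tested. Low values near array background limit what small differences can show.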
